A study of Mus musculus with 6 samples.

Results

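The genes described here encode potassium channel subunits, and they were chosen by name: every transcript cluster (the probe group that an array holds for a gene) whose single gene symbol begins with Kcn, goes on with letters of which the first runs from a to v, and ends in a number. This gave 92 of 29458 genes by a rule that uses no measured value, though it was set with earlier results of these data known. They fall into 30 pore-forming voltage-gated subunits, 10 electrically silent voltage-gated subunits, 11 accessory subunits of voltage-gated channels, 15 inward rectifiers, 14 two-pore channels and 12 subunits of the calcium-activated and Slo families. The arrays were Affymetrix MoGene-2_0-st, 3 from mice 24 h after tMCAO (transient middle cerebral artery occlusion, a stroke model in which a main brain artery is blocked and reopened) and 3 from sham-operated mice, called control here. All mice, controls included, were CD11brGFP transgenics aged 2 to 3 months whose RPL10a, a ribosomal protein, carries Flag and EGFP and is driven by the CD11b promoter of microglia and other myeloid cells, and the RNA came from the tagged ribosomes by TRAP (affinity purification of ribosomes with their mRNA). The labels give 6 mice in each group and 3 biological replicates, but not which mice went into which array, and they give the sex once as male only and once as an even mix.

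Potassium channels let potassium leave or enter cells and so set the resting voltage, end the action potential and clear potassium from the space around neurons. Voltage-gated channels open on depolarisation, inward rectifiers hold the resting voltage, two-pore channels carry leak currents, and calcium-activated channels link a calcium signal to repolarisation. In brain most are known from neurons, while Kir4.1 (Kcnj10) is known from astrocytes, and THIK-1 (Kcnk13), Kv1.3 (Kcna3), Kir2.1 (Kcnj2) and KCa3.1 (Kcnn4) have been studied in microglia.

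The purified RNA held signal from other cells than the tagged ones. All 10 neuron markers listed for comparison lay above the middle of the array medians in mean signal, as did 9 of 10 microglia markers, so a value here cannot be placed in one cell type. In such a mixture, fewer cells of a type and less RNA per cell cannot be told apart. The arrays numbered 2 stood apart from the other 4 in both groups along the first principal component of all genes, at 34.61 in stroke and 48.89 in control against -26.61 to -14.44. Potassium channel genes moved with this: 51 of the 92 (55.4%) had their lowest stroke value and their lowest control value in the arrays numbered 2, as had 21.5% of all genes. The median signal over the 92 genes was 7.82, 7.37 and 7.85 in stroke arrays 1, 2 and 3, and 8.08, 7.52 and 7.995 in control arrays 1, 2 and 3, with array 2 the lowest in both groups. Its part in the results was not tested, and only some of the results are also given without both arrays numbered 2.

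The comparison of stroke with control asked whether channel transcripts on the purified ribosomes differed 24 h after the occlusion. No potassium channel gene passed the threshold (limma, adjusted p under 0.05 over all 29458 genes). Higher calls made up 0.421% of all genes and lower calls 0.00339%, so a list of 92 genes at these rates would hold few or no calls. The smallest adjusted p among the 92 was 0.506, that of Kcnv1. Differences, given as stroke minus control on the log2 scale throughout, ran from -0.60 (Kcnh4) to 0.46 (Kcng4). Of the 92 genes, 85 had a 95% interval that lay wholly within a 2-fold difference in either direction, as had 27799 of all 29458 genes. For these 85 a larger difference is outside the interval, each interval taken alone. The 3 arrays in each group limit this precision, and the median standard error of a member's difference was 0.17.

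**Figure D1:**
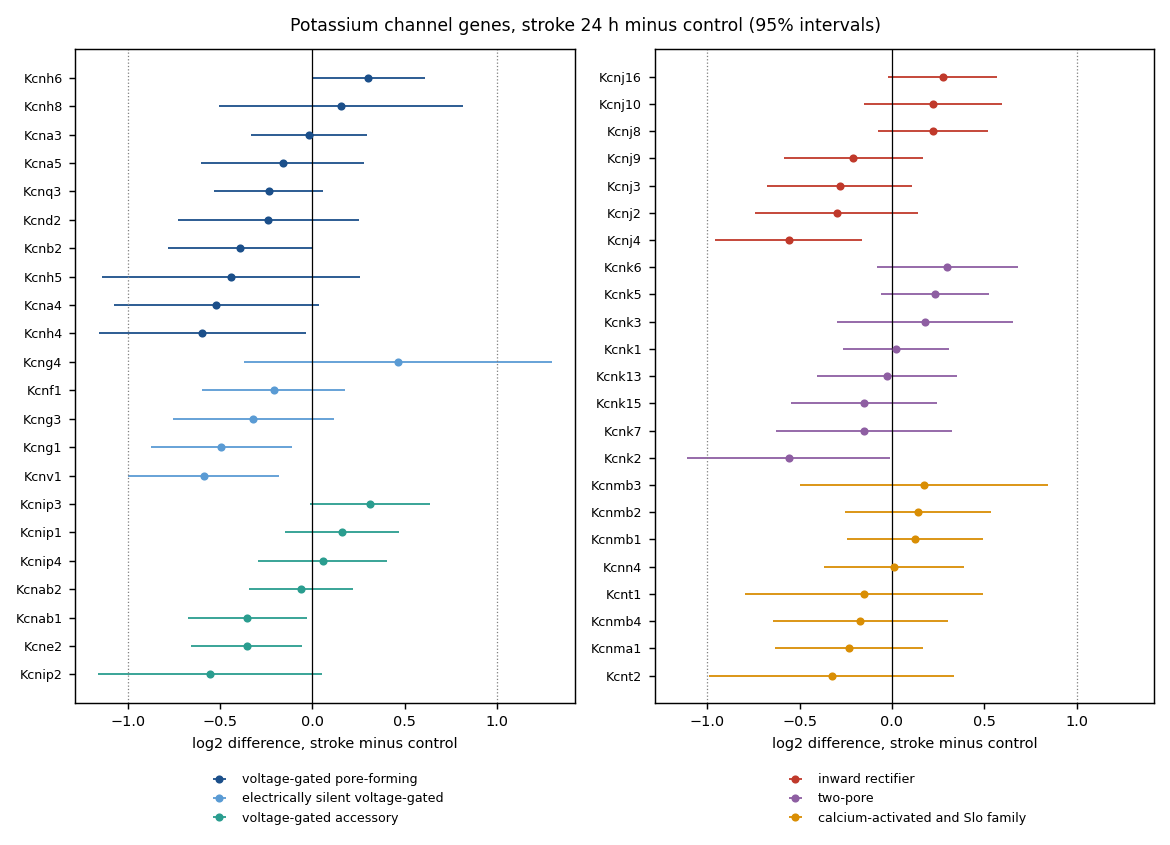
Difference of log2 signal, stroke minus control, for the 45 potassium channel genes described one by one, with 95% intervals from limma (3 arrays in each group). Dots are coloured by channel class, the solid line marks no difference and the dotted lines mark a 2-fold difference. Intervals of 39 of these 45 genes stay between the dotted lines, and the differences run from -0.60 for Kcnh4 to 0.46 for Kcng4.

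Below the threshold the differences leaned one way. Of the 92 genes, 61 (66.3%) were below 0 and 31 above, where 52.8% of all genes were below 0. The median was -0.08, beside -0.011 over all genes. With single arrays left out, 50 to 67 of the 92 genes were below 0, and the median ran from -0.20 to -0.03. Without both arrays numbered 2, 60 were below 0 and the median was -0.12. At an unadjusted p under 0.05, 0 channel genes were higher and 8 (8.70%) were lower, where 3.69% of all genes were higher and 2.07% lower. The 3 stroke values lay below all 3 control values in 8 genes (8.70%, against 4.89% of all genes) and above them in 5 (5.43%, against 6.34%). Stroke was lower than control in all 3 same-numbered pairs of arrays for 35 genes (38.0%, against 17.5% of all genes) and higher in all 3 for 9 (9.78%, against 16.8%). When replicate number entered the fit as a block, 16 genes were lower and 2 higher at an unadjusted p under 0.05, where 4.97% of all genes were lower and 6.15% higher, and the smallest adjusted p was 0.128 (Kcnk2). These shares are descriptions of a list of related genes on shared arrays and carry no test of the list.

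The count of 8 depended on single arrays. It was 2, 15 and 4 without control replicates 1, 2 and 3, 7, 4 and 3 without stroke replicates 1, 2 and 3, and 13 without both arrays numbered 2. It was 4 when each array was centred on its median. Genes above the middle of the array medians, where 76 of the 92 members lie, were lower in 1.5% and higher in 4.9% at an unadjusted p under 0.05.

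**Figure D2:**
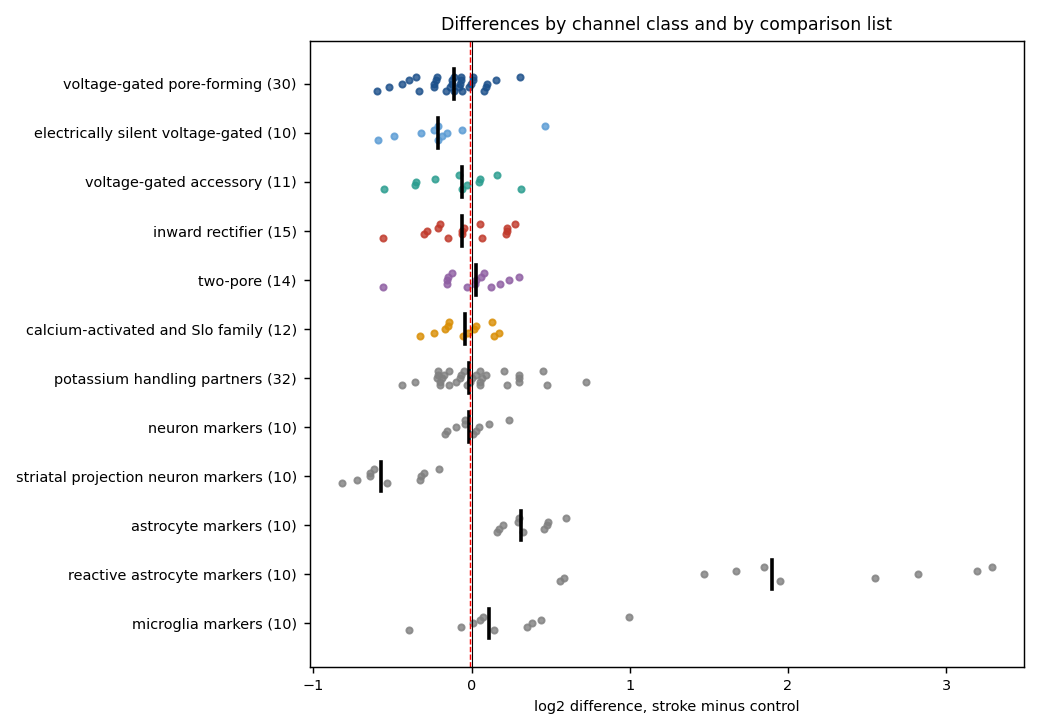
Differences of log2 signal, stroke minus control, by channel class (coloured) and by comparison list (grey), with the number of genes in brackets. Each dot is a gene, black bars are medians, and the dashed red line is the median of all genes (-0.011). The silent voltage-gated class has the lowest median of the channel classes (-0.21), and the striatal neuron markers lie at -0.58.

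Pore-forming voltage-gated subunits are the tetramer-forming proteins that open on depolarisation. None of the 30 passed, 2 were lower at an unadjusted p under 0.05, 23 were below 0 and the class median was -0.11. The largest difference was that of Kcnh4, an ELK-type subunit known from striatum and cortex: 6.30, 5.86 and 6.22 in the stroke arrays, against 6.77, 6.23 and 7.16 in the control arrays. The stroke mean was lower, a difference of -0.60 (95% interval -1.16 to -0.04), but stroke array 1 lay above control array 2, and it did not pass (adjusted p = 0.829). Kcna4, the A-type subunit Kv1.4 of axons and terminals, gave 7.91, 7.03 and 7.62 in the stroke arrays, against 8.33, 7.82 and 7.97 in the control arrays. Its groups overlapped at control array 2, with a difference of -0.52 (95% interval -1.08 to 0.04, adjusted p = 0.921). Kcnh5, an EAG-type subunit, differed by -0.44 (95% interval -1.14 to 0.26), with 9.08 ± 0.38 in stroke and 9.52 ± 0.58 in control (SD, n = 3 arrays each). For both genes the stroke array was the lower one in all 3 same-numbered pairs.

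Kcnb2, which was named after its values were seen, encodes Kv2.2, a delayed rectifier, and had 7.78, 7.78 and 7.76 in the stroke arrays, against 8.23, 7.85 and 8.43 in the control arrays. The 3 stroke values were close together and lay below every control value, with a difference of -0.39 (95% interval -0.78 to -0.005, adjusted p = 0.862). On the side of higher values, Kcnh6, an ERG-type subunit, had 5.75, 5.64 and 5.49 in the stroke arrays, against 5.38, 5.32 and 5.27 in the control arrays. All stroke values lay above all control values, the difference was 0.30 (95% interval -0.00052 to 0.61), and the gene did not pass (adjusted p = 0.869). The control values of Kcnh6 lay close to the array medians of 5.23 to 5.35, where signal and background were not separated. Kcnh8, an ELK-type subunit, differed by 0.15, and its sign turned when single arrays were left out.

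Kcnd2, the main A-type subunit Kv4.2 of neuronal dendrites, had 10.36 ± 0.37 in stroke and 10.60 ± 0.24 in control (SD, n = 3 arrays each), a difference of -0.24 (95% interval -0.73 to 0.25). Kcnq3, a subunit of the M-current that dampens repeated firing, had 10.09, 10.09 and 9.97 in the stroke arrays, against 10.21, 10.25 and 10.40 in the control arrays. The groups of Kcnq3 did not overlap, and the difference of -0.24 (95% interval -0.53 to 0.06) did not pass (adjusted p = 0.969). The lymphocyte and microglia channel Kcna3 had 8.90, 9.19 and 9.05 in the stroke arrays, against 9.09, 8.98 and 9.11 in the control arrays. The groups overlapped with a difference of -0.02 (95% interval -0.33 to 0.29), so a change of the size seen for Kcnh4 lies outside the interval. Kcna5, Kv1.5 of muscle and macrophages, had 6.29 ± 0.22 in stroke and 6.45 ± 0.30 in control (SD, n = 3 arrays each) (-0.16, 95% interval -0.60 to 0.28). The 20 members of this class not described here differed by -0.35 to 0.10.

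Electrically silent subunits form no channel alone, and they modify Kv2 channels when they join them. None of the 10 passed, 9 were below 0 and the median of -0.21 was the lowest of the 6 classes. Kcnv1 (Kv8.1, of cortex and hippocampus) had the lowest p of all 92 genes. Its values were 8.94, 8.87 and 8.51 in the stroke arrays, against 9.59, 9.14 and 9.35 in the control arrays. Every stroke value lay below every control value, the difference was -0.59 (95% interval -0.998 to -0.18), or 1.503-fold higher in control, and it did not pass (adjusted p = 0.506). Kcng1 (Kv6.1) had 7.49, 7.21 and 7.55 in the stroke arrays, against 8.05, 7.66 and 8.02 in the control arrays. These groups did not overlap either, and the 3 same-numbered differences were -0.56, -0.46 and -0.46 (-0.49, 95% interval -0.87 to -0.11; adjusted p = 0.624). Kcng3 (Kv6.3) and Kcnf1 (Kv5.1) differed by -0.32 and -0.21.

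Kcng4 (Kv6.4) was the one silent subunit above 0 and had the highest difference of all members, but that rested on 1 array. Its values were 7.48, 6.84 and 8.43 in the stroke arrays, against 7.40, 6.86 and 7.11 in the control arrays. Stroke array 3 was well above the other 5 arrays, the difference was 0.46 (95% interval -0.37 to 1.30), and it was 0.04 without stroke replicate 3 and 0.83 without stroke replicate 2.

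Accessory subunits attach to voltage-gated channels: Kvbeta proteins (Kcnab) to Kv1, KChIP proteins (Kcnip) to Kv4, and the single-span Kcne proteins to several. None of the 11 passed, 7 were below 0 and the median was -0.06. Kcnip2 encodes KChIP2, a partner of Kv4 known from striatum and cortex, and had 9.96, 9.09 and 9.63 in the stroke arrays, against 10.42, 9.69 and 10.22 in the control arrays. Control array 2 fell among the stroke values, and the difference was -0.55 (95% interval -1.16 to 0.05, adjusted p = 0.930). Compared within the same number it was lower in each pair, with differences of -0.46, -0.60 and -0.59 and a blocked adjusted p of 0.131. Kcnip3 (KChIP3, also known as DREAM or calsenilin, which is also a calcium-dependent transcription repressor) had 10.43, 10.33 and 10.32 in the stroke arrays, against 10.19, 10.10 and 9.85 in the control arrays. Its stroke values all lay above its control values, by 0.31 (95% interval -0.01 to 0.64, adjusted p = 0.902). Kcnip1 and Kcnip4 had smaller differences of 0.16 and 0.06, and that of Kcnip4 changed sign in 2 of 6 fits with an array left out.

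Kcnab1, a Kvbeta1 subunit that speeds inactivation of Kv1 channels, had 8.60, 8.83 and 8.83 in the stroke arrays, against 9.12, 9.22 and 8.98 in the control arrays. Kcne2 (MiRP1, best known from heart, stomach and choroid plexus) had 5.49, 5.68 and 5.49 in the stroke arrays, against 5.90, 5.98 and 5.84 in the control arrays. In both genes all stroke values were below all control values, with differences of -0.35 (95% interval -0.67 to -0.03) and -0.36 (95% interval -0.66 to -0.06, adjusted p = 0.792 and adjusted p = 0.725). Kcnab2, the brain Kvbeta2 subunit, also did not overlap, with a difference of -0.06.

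Inward rectifiers pass potassium inward more easily than outward and hold cells near the potassium equilibrium. None of the 15 passed, 9 were below 0 and the median was -0.06. Kcnj4 (Kir2.3), known from projection neurons of the forebrain including the striatum, had 8.73, 8.29 and 8.70 in the stroke arrays, against 9.35, 8.99 and 9.06 in the control arrays. All stroke values lay below all control values, and the difference of -0.56 (95% interval -0.96 to -0.16), or 1.47-fold higher in control, did not pass (adjusted p = 0.535). Kcnj2 (Kir2.1), known from neurons, vessels and microglia, had 7.21, 6.86 and 6.92 in the stroke arrays, against 7.57, 6.95 and 7.37 in the control arrays. Its groups overlapped, with a difference of -0.30 (95% interval -0.74 to 0.14, adjusted p = 0.9998). The G-protein-gated subunits Kcnj3 (GIRK1) and Kcnj9 (GIRK3), which answer inhibitory receptors, differed by -0.28 and -0.21, and stroke was lower in each pair for both.

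Of the inward rectifiers described here as known from glia or vessels, Kcnj10, Kcnj16 and Kcnj8 had differences above 0. That of Kcnj2, given above, was below 0 (-0.30), and none passed. Kcnj10 (Kir4.1), the astrocyte channel that takes up potassium, had 8.81, 8.77 and 8.97 in the stroke arrays, against 8.40, 8.60 and 8.88 in the control arrays. Control array 3 fell among the stroke values, and the difference was 0.22 (95% interval -0.15 to 0.60, adjusted p = 0.9998). Its partner Kcnj16 (Kir5.1) had 7.05, 6.98 and 6.89 in the stroke arrays, against 6.61, 6.72 and 6.76 in the control arrays. Here stroke lay above control throughout, with a difference of 0.27 (95% interval -0.02 to 0.57, adjusted p = 0.923). Kcnj8 (Kir6.1), the pore of the KATP channel of pericytes and smooth muscle, had 6.16, 6.21 and 6.29 in the stroke arrays, against 5.94, 5.93 and 6.12 in the control arrays. Its stroke values were also all higher, by 0.22 (95% interval -0.08 to 0.52, adjusted p = 0.997), and Abcc9, the sulfonylurea receptor that pairs with it, differed by 0.45 with an adjusted p of 0.637.

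Beside these values, the 10 general astrocyte markers were all above 0 with a median of 0.31, and 0 of 10 passed. Their mean signal was 9.05, 9.07 and 9.17 in the stroke arrays, above the 8.66, 8.71 and 8.88 of the control arrays. Of 10 reactive astrocyte markers 8 rose (limma, adjusted p under 0.05), with a median of 1.90. The part of astrocyte RNA in the Kcnj10 and Kcnj16 values was not tested. Monocyte and macrophage markers had 2 of 10 called higher (Vim and Cd44, both also on the reactive astrocyte list) and a median of 0.43, neutrophil markers 1 of 10 (Il1r2) and 0.23, and oligodendrocyte markers 0 of 10 and 0.13. With the replicate block 3 of 10 neutrophil markers were called higher, Il1r2 with S100a8 (adjusted p = 0.0165) and S100a9 (adjusted p = 0.0432). The endothelial and mural list, which holds Abcc9, had a median of -0.05 with 0 of 10 genes passing.

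Two-pore channels carry background currents and respond to stretch, acid, lipids or neurotransmitters. None of the 14 passed, 6 were below 0 and the median was 0.03. Kcnk2 (TREK-1), opened by stretch and by polyunsaturated fatty acids and known from neurons of striatum and cortex and from astrocytes, had 9.21, 8.44 and 8.998 in the stroke arrays, against 9.70, 9.09 and 9.54 in the control arrays. Control array 2 lay among the stroke values, and the difference was -0.56 (95% interval -1.11 to -0.01, adjusted p = 0.859). Within each number the stroke array was lower, with differences of -0.49, -0.65 and -0.54, which gave the smallest blocked adjusted p of the 92 genes.

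Kcnk6 (TWIK-2), a channel that macrophages use for potassium efflux ahead of the NLRP3 inflammasome, had 7.05, 7.23 and 7.21 in the stroke arrays, against 6.81, 7.15 and 6.63 in the control arrays. Control array 2 lay above stroke array 1, and the difference of 0.30 (95% interval -0.08 to 0.68) did not pass (adjusted p = 0.972). Kcnk13 (THIK-1), the tonic potassium channel of microglia, had 6.96, 6.54 and 7.02 in the stroke arrays, against 6.94, 6.74 and 6.92 in the control arrays. The groups overlapped with a difference of -0.03 (95% interval -0.41 to 0.35), which is a stroke over control ratio between 0.754 and 1.28. Beside them, 0 of 10 microglia markers passed, with a median of 0.11 and a mean signal of 7.19, 7.40 and 7.20 in the stroke arrays against 6.85, 7.12 and 7.23 in the control arrays. These markers did not move together: 8 were above 0 and 2 below, from -0.40 (P2ry12) to 0.997 (Fcrls, limma adjusted p = 0.0667).

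Kcnk1 (TWIK-1), of neurons and astrocytes, had 9.87, 10.04 and 9.98 in the stroke arrays, against 9.95, 9.94 and 9.93 in the control arrays. The groups overlapped, with a difference of 0.02 (95% interval -0.26 to 0.31). Kcnk5 (TASK-2), an alkaline-activated channel, had a low signal of 5.52, 5.36 and 5.39 in the stroke arrays, against 5.13, 5.26 and 5.18 in the control arrays. Its groups did not overlap (0.23, 95% interval -0.06 to 0.53; adjusted p = 0.969). Kcnk3 (TASK-1), closed by acid, differed by 0.18, and Kcnk7 and Kcnk15 differed by -0.15 and -0.15.

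Calcium-activated channels comprise the large-conductance BK channel (pore Kcnma1, accessory Kcnmb) and the small- and intermediate-conductance channels (Kcnn). The class also takes in the sodium-activated channels (Kcnt) and the sperm channel Kcnu1, as members of the Slo family. None of the 12 passed, 7 were below 0 and 0 had groups that did not overlap. Kcnma1 had 10.19, 9.87 and 10.28 in the stroke arrays, against 10.41, 10.10 and 10.53 in the control arrays. Control array 2 lay among the stroke values, and the difference was -0.23 (95% interval -0.63 to 0.17), nearly the same in each pair (-0.21, -0.23 and -0.25). A further cluster shared by Kcnma1 and A830039N20Rik, which the single-symbol rule leaves out, differed by -0.28. Kcnt2 and Kcnt1 differed by -0.33 and -0.15, and stroke was lower in each pair for both.

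The intermediate-conductance channel Kcnn4, through which calcium signals drive potassium efflux in microglia and T cells, had 5.12, 5.48 and 5.18 in the stroke arrays, against 5.24, 5.46 and 5.05 in the control arrays. These values lay close to the array medians of 5.23 to 5.35, where signal and background were not separated. The groups overlapped (0.01, 95% interval -0.37 to 0.39). The accessory BK subunits Kcnmb3, Kcnmb2 and Kcnmb1 differed by 0.18, 0.14 and 0.13, and the neuronal Kcnmb4 by -0.17. In all classes, 16 of the 92 genes had a mean signal below the middle of the array medians, where a difference may be that of background.

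**Figure D3:**
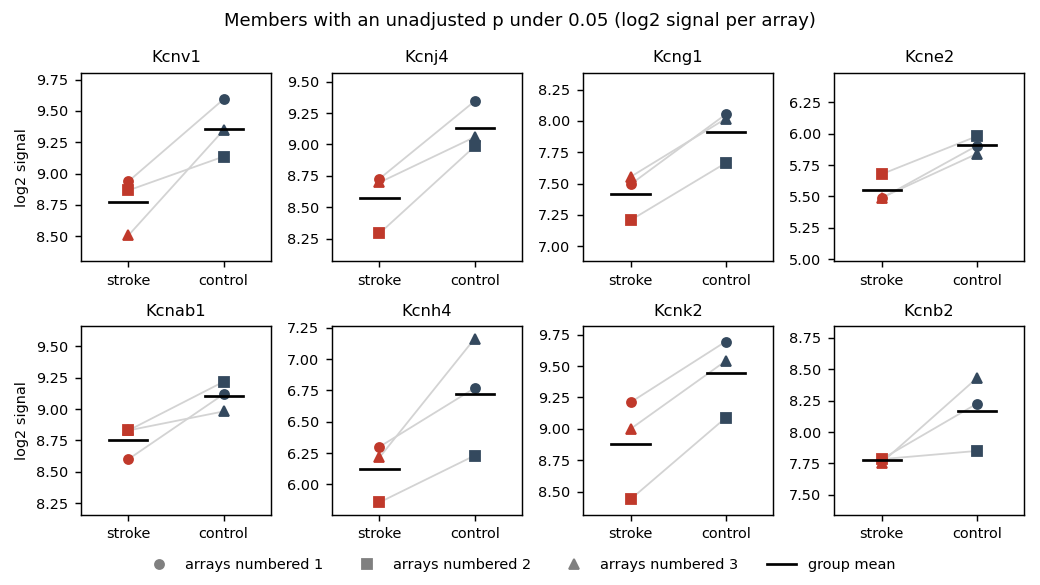
Log2 signal on each array for the 8 potassium channel genes with an unadjusted p under 0.05, in order of p, stroke (red) left and control (blue-grey) right. Markers give the array number, grey lines join arrays of the same number, and bars are group means. All 8 stroke means are lower, and Kcnh4 and Kcnk2 overlap at control array 2.

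All 8 genes with an unadjusted p under 0.05 (Kcnv1, Kcnj4, Kcng1, Kcne2, Kcnab1, Kcnh4, Kcnk2 and Kcnb2, in order of p) had lower means in stroke, as the plot of their signals by array shows. Stroke was below control in all 3 same-numbered pairs in each of them. In all but Kcnh4 and Kcnk2 this had to be so, since their groups did not overlap. The 8 were picked by p from these same values, so the pairs add no separate evidence. Beside them, the 10 striatal projection neuron markers were below 0 in all cases, with a median of -0.58. None of those 10 passed without the replicate block, and 1 passed with it, Adora2a (adjusted p = 0.0450). Without the block, the list held Pde10a, a phosphodiesterase, at -0.64 with an adjusted p of 0.226 and the adenosine receptor Adora2a at -0.82 with an adjusted p of 0.336. The mean of the striatal markers was 9.04, 8.74 and 9.08 in the stroke arrays, below the 9.58, 9.35 and 9.48 of the control arrays. The 10 general neuron markers had a median of -0.01. What part striatal RNA has in the channel values was not tested.

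Promoter windows of Kcnj4 (chr15:79505192-79505491, minus strand) and Kcnh4 (chr11:100759729-100760028, minus strand) are shown, since both are among these 8 and RefSeq (GRCm38.p6) gives each a single window. Both windows lie inside the outer bounds of their gene. On this strand the outer start is the higher bound, 79512511 for Kcnj4 and 100760115 for Kcnh4. Capitals mark the GC box GGGCGG and the CRE core TGACG on either strand.
Kcnj4: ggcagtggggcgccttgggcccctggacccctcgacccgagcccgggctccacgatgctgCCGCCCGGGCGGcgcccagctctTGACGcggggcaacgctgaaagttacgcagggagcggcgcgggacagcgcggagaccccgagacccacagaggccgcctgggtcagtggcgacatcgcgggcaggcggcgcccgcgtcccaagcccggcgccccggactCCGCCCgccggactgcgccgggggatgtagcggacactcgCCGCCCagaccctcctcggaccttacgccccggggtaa
Kcnh4: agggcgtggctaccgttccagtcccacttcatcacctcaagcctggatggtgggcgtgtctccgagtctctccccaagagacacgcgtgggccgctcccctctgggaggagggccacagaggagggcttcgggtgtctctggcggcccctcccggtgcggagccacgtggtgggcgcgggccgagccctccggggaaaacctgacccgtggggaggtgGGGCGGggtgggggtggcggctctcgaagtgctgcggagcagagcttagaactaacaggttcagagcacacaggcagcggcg
The Kcnj4 window holds 4 GC boxes and 1 CRE core, and the Kcnh4 window holds 1 GC box. Windows were found for 67 of the 92 genes, 92 windows in all. A GC box stood in 47.8% of them against 35.7% of all 32851 windows, a CRE core in 18.5% against 20.8%, a TATA box (TATAAA) in 5.43% against 13.6%, and a full CRE (TGACGTCA, which contains that core) in 0 against 1.79%. These matches describe the letters of the windows, and no factor was measured.

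Other genes that move potassium or sit in channel complexes, 32 in a list of pumps, cotransporters, HCN channels and partner proteins, were set beside these. None passed, and 4 were higher and 1 lower at an unadjusted p under 0.05, where 3.69% of all genes were higher and 2.07% lower. Of the 32 genes 17 were below 0 (53.1%, against 52.8% of all genes), and the median was -0.02. The largest positive differences were those of Slc12a4 (the potassium-chloride cotransporter KCC1, 0.73 with an adjusted p of 0.670), Aqp4 (the astrocyte water channel, 0.48 with an adjusted p of 0.576) and Abcc9, given above. Among the most negative were those of Fxyd7 (a brain regulator of the sodium pump, -0.36 with an adjusted p of 0.9998) and Slc12a5 (the neuronal cotransporter KCC2, -0.22 with an adjusted p of 0.9998).

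**Figure D4:**
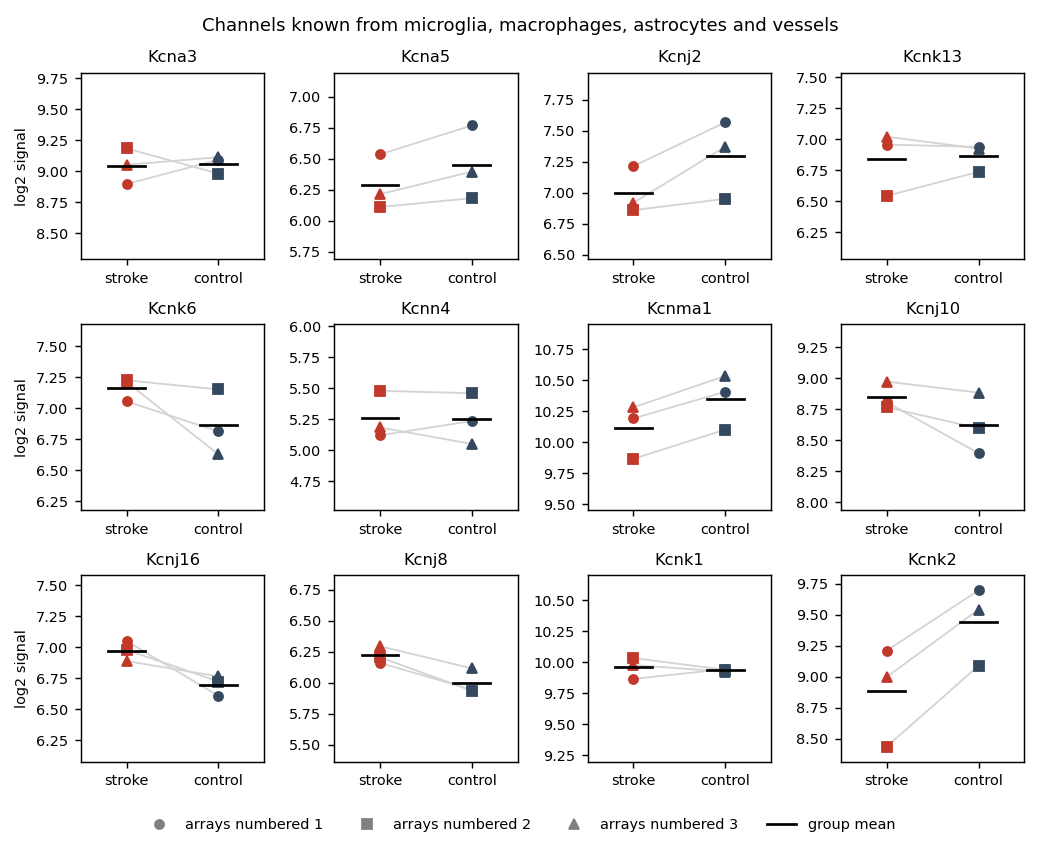
Log2 signal on each array for 12 channels known from microglia, macrophages, astrocytes or vessels, stroke (red) left and control (blue-grey) right, with markers for the array number, grey lines between arrays of the same number and bars for group means. The groups are separate for Kcnj16 and Kcnj8 and overlap for the other 10, Kcnk2 included.

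Channels known from glia, myeloid cells and vessels differed by -0.56 (Kcnk2) to 0.30 (Kcnk6), as the plot of these 12 channels shows. A 2-fold difference was outside the 95% interval of each but Kcnk2. In the authors' deposited table the same 92 genes had 0 FDR p-values under 0.05, the lowest being 0.572, and 8 lower and 0 higher p-values under 0.05. That table comes from the same series, so these counts are no separate evidence. For some described genes its signed fold change had the opposite direction. Examples are Kcnk3 (-1.1) and Kcnh8 (-1.16), both above 0 here, and Kcnf1 (1.02), below 0 here.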

How the data were processed

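Expression was measured on 6 arrays, 3 per group, of 100 ng RNA each per the labels. The values used are log2 signals per transcript cluster as the authors deposited them, made with Transcriptome Analysis Console 3.0 per the submitters' processing notes; how signals were summarised and scaled, and on which build, the sources used here do not say. The authors' deposited table also holds a fold change (a signed score) and p-values, whose test is not named there. Clusters were joined to its gene symbols: 29971 of 41345 had a single symbol, and the brightest cluster of each symbol gave 29458 genes. Kcnd3os, Kcnq1ot1 and clusters with several symbols stayed out of the members.

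Groups were compared in R 4.3.3 with limma 3.58.1 (lmFit, eBayes) and Benjamini-Hochberg adjustment over all genes, tested on simulated data first. Members and lists were chosen with earlier results of these data known. Genes were named for passing the threshold, for the 3 most positive and 3 most negative differences or the 2 brightest signals of a class, or for a known role in glia, myeloid cells or vessels; Kcnb2 was added after its values were seen, and a few genes the rule names are not reported here. Deviations of same-numbered arrays correlated at 0.30, 0.58 and 0.39 (unlike numbers -0.46 to 0.24), so same-numbered arrays were also compared as pairs. Intervals and adjusted p-values are those of the fit without a block unless the block is named. The blocked fit stands beside only some of the results it moved. Its adjusted p (limma) was 0.225 for Kcnv1, 0.169 for Kcng1 and Kcnj4, 0.234 for Kcnh4 and 0.237 for Kcna4. Alternatives changed the normalization, filters, weights, cluster rule, moderation and arrays.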

Additional observations from a re-analysis of the deposited data

How the results depend on the processing

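In all 17 alternatives 0 potassium channel genes passed the threshold, and the lowest adjusted p of any described gene was 0.128 (Kcnk2, with the replicate block). Without both arrays numbered 2 the lowest adjusted p (limma) was 0.347 (Kcnh4). The count of lower genes at an unadjusted p under 0.05, 8 as reported, was 4 with arrays centred on their medians, 16 with the replicate block, 13 with array weights, 5 with all clusters tested, 13 without both arrays numbered 2, and 2 to 15 with single arrays left out. The count of higher genes, 0 as reported, was 1 with quantile normalization, with the 25th percentile filter, with trend and robust, with the mean over clusters and without both arrays numbered 2. It was 2 with the median filter and with the replicate block, 3 with centring, 4 with array weights, 5 with the ordinary test, and 0 to 1 with single arrays left out. The distinct genes of the marker lists that passed numbered 9 as reported, 12 with the replicate block and with array weights, 10 with the median filter, 6 with all clusters and without both arrays numbered 2, 0 with the ordinary test, 5 to 7 with single arrays left out, and 9 in the other alternatives. Signs turned for Kcnk13 (0.019) and Kcna3 (0.028) with centring, for Kcnk1 (-0.0075), Kcnn4 (-0.024), Kcnip4 (-0.029) and Kcnk13 (0.027) with array weights, and for Kcnk1 (-0.013), Kcnip4 (-0.014), Kcnh8 (-0.024) and Kcnk13 (0.057) without both arrays numbered 2. With single arrays left out, signs turned within -0.16 to 0.34 for Kcnh8, -0.042 to 0.12 for Kcnip4, -0.031 to 0.31 for Kcnk3, -0.24 to 0.012 for Kcnk15, -0.015 to 0.069 for Kcnk1, -0.16 to 0.36 for Kcnmb3, -0.36 to 0.019 for Kcnmb4, -0.36 to 0.11 for Kcnt1, -0.087 to 0.056 for Kcna3, -0.12 to 0.12 for Kcnk13 and -0.097 to 0.12 for Kcnn4. The other 34 described members, Kcnb2 included, kept their sign in every alternative run. The causes were not tested. No detection calls were used, so for the 16 members of low signal the values may be background.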

Other observations

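Kcn clusters that the symbol rule or the brightest-cluster choice leaves out did not pass the threshold either (limma, p adjusted over all clusters). Kcnd3os, annotated opposite Kcnd3, had 5.49, 5.51 and 5.53 in the stroke arrays, against 5.82, 5.81 and 5.87 in the control arrays. Its groups were far apart for their narrow spread, with a difference of -0.32 and an adjusted p of 0.852. Kcnq1ot1, the imprinted noncoding RNA at the Kcnq1 locus, differed by -0.50 with an adjusted p of 0.894. The second, dimmer Kcna2 cluster differed by -0.24, and Kcnrg, a suppressor of Kv channel assembly that is also on the list of partners, by 0.22. Mean signals in stroke and control were 4.36 and 4.87 for Kcnq1ot1, 3.57 and 3.81 for this Kcna2 cluster, and 4.47 and 4.25 for Kcnrg. All lay below the array medians of 5.23 to 5.35, where a difference may be that of background.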
